A study of Homo sapiens with 6 samples.

Results

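Bone morphogenetic protein (BMP) signalling was followed through 10 genes taken by symbol from the deposited count table: the ligands BMP2, BMP4 and BMP7, the response genes ID1, ID2, ID3 and ID4, and the feedback inhibitors SMAD6, SMAD7 and BAMBI. All 10 were among the 26490 gene symbols of the table, and all 10 passed the low-count filter that left 13832 genes to test. RNA-seq of SW403, an established human colon adenocarcinoma line, compared 3 libraries titled as control (genotype given as WT) with 3 libraries titled as IRS2 knockdown. IRS2 encodes insulin receptor substrate 2, an adaptor below the insulin and IGF1 receptors. All cells were grown for 24 h in DMEM with 10% serum and no added treatment. The labels name no added BMP ligand or inhibitor, and what the serum held of either is not given. The sample descriptions carry KO where the titles and genotype give knockdown, and the titles' word is used here. The labels do not say how IRS2 was lowered, whether the knockdown was made in 1 clone, or whether the 3 cultures of a group were derived separately; the p-values therefore measure the spread between these libraries.

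BMP ligands are secreted dimers of the TGF-beta superfamily. They bind pairs of type I and type II serine/threonine kinase receptors, which phosphorylate SMAD1, SMAD5 and SMAD9; these join SMAD4 and enter the nucleus, where the ID genes are among the best known targets. ID proteins carry a helix-loop-helix domain without a DNA-binding region and hold E proteins, such as TCF3, TCF4 and TCF12, away from DNA. SMAD6, SMAD7 and BAMBI are induced by the pathway and inhibit it. In the colon, BMP activity is high towards the top of the crypt, where it accompanies differentiation, and is kept low at the base by secreted antagonists.

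The labels were checked first. As CPM (counts scaled to the library total), the control libraries averaged 33.2 ± 1.42 for IRS2 and the knockdown libraries 12.4 ± 0.535 (SD, n = 3 each), a log2 fold change of -1.39 ± 0.07 (SE; adjusted p = 3.12e-11, edgeR's quasi-likelihood test). Library totals ran from 11816973 to 18114656 counts, and each knockdown library was deeper than each control library. Of 9 colon epithelial markers, KRT8, KRT18, CDX2, EPCAM and VIL1 were detected well enough to be tested, with 1 higher and 1 lower. KRT8 averaged 1106 ± 14.0 CPM over the control and 1043 ± 23.1 CPM over the knockdown libraries (SD, n = 3 each), with every knockdown value under every control value, and did not pass (adjusted p = 0.132, edgeR). EPCAM was lower (log2 fold change -0.21, adjusted p = 0.00581, edgeR) and CDX2 higher (0.14, adjusted p = 0.0148; 0.0668 without control replicate 1 and 0.0644 without knockdown replicate 2). The other 4, CDH1, CEACAM5, KRT20 and LGALS4, had at most 5 counts in any library. E-cadherin (CDH1) and these differentiation markers were thus at or near 0 in cells labelled as colon adenocarcinoma; KRT20 and CEACAM5 had 0 counts in all 6 libraries, which allows up to 3 counts, or 0.166 to 0.254 CPM depending on the library. Summed levels of 4 endothelial markers were at most 0.876 CPM and those of 5 leukocyte markers at most 1.82 CPM in any library. The sum of 8 fibroblast markers ranged from 9.56 to 28.1 CPM in control and from 5.98 to 7.45 CPM in knockdown libraries; THY1 and DCN had at most 5 counts in any library, while COL1A1 and COL3A1 were called lower in knockdown (2.22-fold and 3.26-fold; adjusted p = 0.00290 and 0.0136, edgeR). Control replicate 1 stood apart for COL1A1, at 15.3 CPM against 5.73 and 5.67 CPM in the other controls, and without it COL1A1 was 1.42-fold lower (adjusted p = 0.0325, edgeR). The groups of COL3A1 overlapped, and its call was lost without control replicate 1 (adjusted p = 0.179, edgeR) or knockdown replicate 2 (0.0766). The part of these markers in the results below was not tested. In bulk RNA, fewer cells of a type and less RNA per cell cannot be told apart.

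The 10 genes split into a group that dropped more than 2-fold and a group that moved little. BMP2, ID3, ID4 and SMAD6 fell by 2.33-fold to 6.11-fold in the knockdown libraries. BMP4 fell by 1.26-fold, and BAMBI and SMAD7 by 1.11-fold each. ID2 rose by 1.08-fold, and ID1 and BMP7 did not pass the threshold. In all, 8 of the 10 genes passed an adjusted p of 0.05, 7 lower and 1 higher, where 38.5% of all tested genes were called in either direction, 19.2% lower and 19.3% higher (2653 and 2676 genes). A correction for length and GC content that was not centred on all genes gave 2027 lower and 4005 higher, and a centred one 2881 and 2919. A decrease of at least 2-fold past the threshold was found for 4 of the 10 genes and for 4.32% of all tested genes. The groups did not overlap in CPM for 8 of the 10, against 48.4% of all tested genes. The median log2 fold change was -0.31 over the 10 genes and -0.0039 over all tested genes. BMP2 passed the low-count filter only through the control libraries, and a gene that passes in this way is bound to be lower in knockdown. Of the 9 others, 7 were called, 3 of them at least 2-fold lower, with a median of -0.29. The 10 genes were chosen with earlier results of these data known, so these shares are no test of BMP genes as a set.

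**Figure D1:**
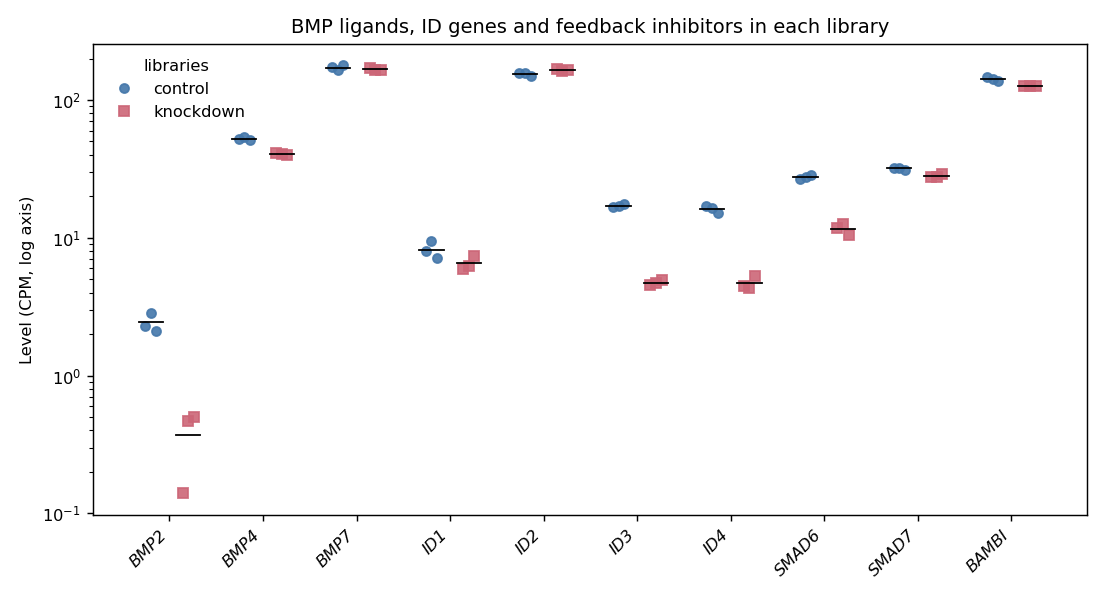
Level of each of the 10 BMP genes in CPM (log axis) in the 3 control libraries (circles) and the 3 knockdown libraries (squares), with the group mean as a black line. The groups are far apart for BMP2, ID3, ID4 and SMAD6, close but separate for BMP4, SMAD7, BAMBI and ID2, and overlapping for ID1 and BMP7.

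Among the ligands, BMP2 was scarce and BMP7 abundant. BMP2 lies on chromosome 20 (GRCh37, 6748333 to 6760893, 3 exons in the canonical transcript) and was counted 29, 36 and 25 times in the control libraries against 2, 8 and 9 times in the deeper knockdown libraries. Its highest knockdown library, at 0.497 CPM, lay below its lowest control library, at 2.12 CPM. The fitted log2 fold change of BMP2 was -2.61 ± 0.34 (SE; adjusted p = 6.29e-06, edgeR). Over pooled counts, 90 in control and 19 in knockdown, the control rate of BMP2 was 6.35 times the knockdown rate, with a 95% exact (Clopper-Pearson) interval from 3.84 to 11.0 that covers counting error only.

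BMP4, which with BMP2 forms the BMP2/4 subgroup of the family, lies on chromosome 14 (GRCh37, 54416454 to 54425479). It was at 52.5, 53.6 and 51.0 CPM in control and at 41.2, 40.7 and 40.1 CPM in knockdown libraries. The replicates of BMP4 were tight in both groups and the groups did not overlap, with a log2 fold change of -0.34 ± 0.05 (SE; adjusted p = 2.25e-05, edgeR). BMP7, on chromosome 20 (GRCh37, 55743809 to 55841697), was the ligand with the highest level, at 172, 166 and 178 CPM in control and 169.9, 166 and 166 CPM in knockdown. The knockdown values of BMP7 lay inside the control range or at its lower end, and its log2 fold change of -0.0092 had a 95% interval from -0.082 to 0.064 (adjusted p = 0.862, edgeR). BMP4 had 30.5 ± 1.88 counts per 100 counts of BMP7 in control and 24.3 ± 0.155 in knockdown (SD, n = 3 each), a ratio that needs no scaling between libraries; the 2 groups did not overlap and the exact two-sided permutation p was 0.1, the smallest that 3 against 3 can give.

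The ID genes did not move together. ID3 and ID4 fell more than 3-fold, ID2 was slightly higher and ID1 showed no difference past the threshold. ID3, on chromosome 1 (GRCh37, 23884417 to 23885992, 3 exons), was at 16.7, 17.0 and 17.6 CPM in control and at 4.54, 4.69 and 4.91 CPM in knockdown libraries. The spread of ID3 within each group was small beside the gap, and its log2 fold change of -1.82 ± 0.10 (SE; adjusted p = 1.02e-10, edgeR) was called with the smallest p of the 10 genes. ID4, on chromosome 6 (GRCh37, 19837601 to 19842428, 3 exons), was at 17.0, 16.4 and 15.1 CPM in control and at 4.47, 4.34 and 5.24 CPM in knockdown libraries. The log2 fold change of ID4 was -1.75 ± 0.11 (SE; adjusted p = 6.16e-10, edgeR), close to that of ID3.

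ID2, on chromosome 2 (GRCh37, 8818975 to 8824591), was by far the most abundant ID gene. It was at 158, 157 and 149 CPM in control and at 168, 162 and 164 CPM in knockdown libraries. Every knockdown library of ID2 lay above every control library, but by little (log2 fold change 0.12 ± 0.04 SE, adjusted p = 0.0146, edgeR). With library size alone as the scaling, ID2 had an adjusted p of 0.0598. ID1, on chromosome 20 (GRCh37, 30193086 to 30194318), was at 8.03, 9.39 and 7.11 CPM in control and at 5.93, 6.27 and 7.40 CPM in knockdown libraries. The highest knockdown library of ID1 exceeded the lowest control library, and the log2 fold change of -0.29 had a 95% interval from -0.58 to -0.00098 before adjustment (adjusted p = 0.106, edgeR). Without knockdown replicate 3, which holds that highest value, ID1 passed (log2 fold change -0.40, adjusted p = 0.0419, edgeR).

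Set against ID2 within each library, a comparison free of scaling, ID3 fell from 11.0 ± 0.654 to 2.86 ± 0.146 counts per 100 counts of ID2 and ID4 from 10.4 ± 0.340 to 2.85 ± 0.301 (SD, n = 3 each; exact two-sided permutation p = 0.1 for both, the smallest possible). ID1 had 5.27 ± 0.625 counts per 100 counts of ID2 in control and 3.97 ± 0.491 in knockdown (SD, n = 3 each; exact two-sided permutation p = 0.1). By the ratio to ID2, all 3 of the other ID genes were lower in every knockdown library than in every control library, ID1 by the least. ID2 was itself called higher in knockdown (log2 fold change 0.12), which lowers each of these ratios. In CPM the groups of ID1 overlapped.

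The feedback inhibitors also differed among themselves: SMAD6 fell by 2.33-fold, SMAD7 and BAMBI by 1.11-fold. SMAD6, which acts mainly on BMP receptors and SMAD1, lies on chromosome 15 (GRCh37, 66994574 to 67075187, 4 exons) and was at 26.7, 27.4 and 28.7 CPM in control and at 11.9, 12.6 and 10.4 CPM in knockdown libraries. SMAD6 thus fell in every knockdown library to under the lowest control value (log2 fold change -1.22 ± 0.08 SE, adjusted p = 8.80e-10, edgeR). SMAD7, which also blocks TGF-beta receptors, lies on chromosome 18 (GRCh37, 46446223 to 46477335) and was at 32.3, 32.2 and 31.1 CPM in control and at 27.4, 27.5 and 29.0 CPM in knockdown libraries. The groups of SMAD7 did not overlap, but the difference was small and just past the threshold (log2 fold change -0.15 ± 0.06 SE, adjusted p = 0.0481, edgeR), and DESeq2's Wald test gave an adjusted p of 0.294. SMAD7 missed the threshold in 14 of 20 alternative settings. SMAD6 had 86.7 ± 5.09 counts per 100 counts of SMAD7 in control and 41.6 ± 5.10 in knockdown (SD, n = 3 each), with no overlap and an exact two-sided permutation p of 0.1.

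BAMBI encodes a transmembrane pseudoreceptor that lacks the kinase domain of type I receptors, and it is also a known Wnt target. It lies on chromosome 10 (GRCh37, 28966439 to 28971861) and was at 148, 142 and 138 CPM in control and at 125, 126 and 126 CPM in knockdown libraries. All 3 knockdown values of BAMBI were nearly equal and below the control range (log2 fold change -0.15 ± 0.04 SE, adjusted p = 0.00279, edgeR).

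Levels of different genes were compared as CPM per kilobase of the canonical transcript. In control libraries the order from the highest was ID2 (119 ± 3.72), BAMBI, BMP7, BMP4, ID3, SMAD7, ID1, SMAD6, ID4 and BMP2 (0.685 ± 0.110; CPM per kb, SD, n = 3). In this order ID1 (8.32 ± 1.17) overlapped both of its neighbours, SMAD7 (9.53 ± 0.208) and SMAD6 (7.21 ± 0.264; CPM per kb, SD, n = 3 each), while the other neighbours did not overlap. In knockdown libraries ID3 moved from 17.98 ± 0.495 to 4.96 ± 0.200 CPM per kb (SD, n = 3 each) and so from above SMAD7 and ID1 to below both. No neighbours overlapped in the order of the knockdown libraries. The lengths assume the canonical transcript for every gene, and which transcripts were present was not measured.

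Large decreases were more frequent among genes with few counts across the whole table. By mean count over the 6 libraries, 19% of the tested genes under 50 were at least 2-fold lower past the threshold, 5.8% of those from 50 to 200, 0.493% of those from 200 to 500 and 0.113% of those at 500 or more. None of the 4 BMP genes in the last class (BAMBI, BMP4, BMP7 and ID2) was at least 2-fold lower. ID3 and ID4 fell in the class of 50 to 200 counts together with ID1, which did not pass. SMAD6 belonged to the class of 200 to 500 counts, where 14 of 2838 tested genes fell at least 2-fold.

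**Figure D2:**
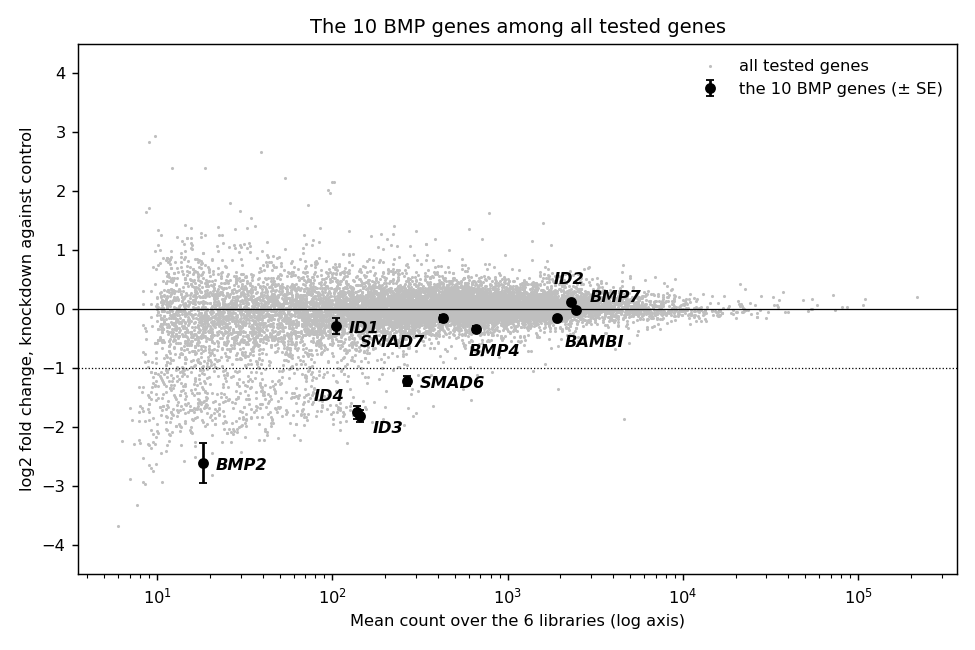
Log2 fold change of knockdown against control plotted against the mean count over the 6 libraries (log axis) for all tested genes (grey points) and the 10 BMP genes (black points with SE). The dotted line marks a 2-fold decrease, and 1 tested gene lies beyond the axis limit of 4.5. BMP2, ID3, ID4 and SMAD6 lie under the dotted line, among a tail of lower genes that has no counterpart of equal size above 0.

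The genes most like ID3 over the 6 libraries were sought among 10440 candidates whose mean count reached 100, as the smallest Euclidean distance in log2 CPM centred on the control mean. They were FSTL1, BEX4, EPB41L3, UCHL1 and RADX, at distances from 0.186 to 0.242. Their log2 fold changes were -1.87, -1.79, -1.87, -1.77 and -1.69, beside -1.82 for ID3. This closeness follows from the search, which used the same 6 libraries, and is no separate result. FSTL1 encodes a secreted glycoprotein related to follistatin that can bind BMP4, and UCHL1 a ubiquitin hydrolase best known from neurons. Bulk counts do not show whether the transcripts of ID3, ID4, SMAD4 and these genes came from all cells of a culture or from some of them, so a fold change here need not be a change within each cell.

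Short stretches of the promoters are shown for SMAD6, ID3, ID4, SMAD7, BAMBI and BMP4, because SMAD proteins bind known DNA words. The sequences are from RefSeq (GRCh38.p14), which had a promoter of 300 bases (250 before the start and 50 after) for 8 of the 10 genes: BAMBI, BMP4, ID1, ID2, ID3, ID4, SMAD6 and SMAD7. Each line gives 30 bases 5′ to 3′ along the gene's strand, before its start, with the word in capitals. The words are the palindromic SMAD word GTCTAGAC in SMAD6 and a shorter SMAD word, CAGAC, in ID3, ID4 and SMAD7. In BAMBI and BMP4 the word is the GC-rich BMP SMAD word GGCGCC.
SMAD6: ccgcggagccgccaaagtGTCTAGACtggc
ID3: ggtcttcggcgtCAGACcagccggaggaag
ID4: ggctggccactcCAGACcccccgcccactc
SMAD7: ttcttattttgcCAGACgtctcatgcgggg
BAMBI: gcgccccagccgGGCGCCccagacgccggc
BMP4: ccggggaacccgGGCGCCcgccccttctac

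These windows are chr15:66702206-66702235 (+) for SMAD6, chr1:23559631-23559660 (-) for ID3, chr6:19837153-19837182 (+) for ID4, chr18:48951076-48951105 (-) for SMAD7, chr10:28677313-28677342 (+) for BAMBI and chr14:53955265-53955294 (-) for BMP4, all in GRCh38.p14. The word GTCTAGAC, found in the SMAD6 window beginning 12 bases before the start, occurs in 0.202% of the 35116 promoters of the table, and in no other of the 8. CAGAC, searched on both strands, where it shares only part of its letters with GTCTAGAC, occurs in 45.3% of all promoters and in 5 of the 8 (BAMBI, BMP4, ID3, ID4 and SMAD7). GGCGCC occurs in 19.2% of all promoters and in 2 of the 8, in BAMBI 3 times. A composite BMP response word (GGCGCC, then 5 free bases, then GTCT), searched on both strands, is in 0.103% of all promoters and in 0 of the 8, and the E-box word CAGCTG is in 17.9% of all promoters and in 2 of the 8 (ID2 and ID4). Genes that fell by more than 3-fold (ID3 and ID4) and a gene that fell by 1.11-fold (SMAD7) thus share the CAGAC word. A match describes these letters only and is not a site.

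The rest of the pathway was read from a list of 81 other BMP genes sorted by role. Of these, 29 were too low to test and 52 were tested; 27 were called, 17 lower and 10 higher (51.9%, against 38.5% of all tested genes). A decrease of at least 2-fold was found for 8 of the 52 and an increase of at least 2-fold for 0, with 4.32% of all tested genes at least 2-fold lower. Of the 8, all but HEY1 had a mean count under 200. The share of tested genes at least 2-fold lower was 19% under 50 counts and 5.8% from 50 to 200. It was 0.493% from 200 to 500, the class of HEY1. The 8 include CHRD, which passed the low-count filter only through the control libraries and was bound to be lower; of the 51 others, 7 were at least 2-fold lower and 26 were called, 16 of them lower. The median log2 fold change of the 52 was -0.06. This list was also chosen with earlier results of these data known, so its shares, here and by role below, are no test.

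Among the SMAD transducers, SMAD4 fell more than 3-fold. This partner of both BMP and TGF-beta SMADs lies on chromosome 18 (GRCh37, 48554898 to 48611415, 12 exons) and had 95, 107 and 114 counts in control and 30, 43 and 48 in knockdown libraries. In CPM, SMAD4 was at 7.55, 8.52 and 9.65 in control and at 2.09, 2.52 and 2.65 in knockdown. Its groups were far apart, with a log2 fold change of -1.78 ± 0.16 (SE; adjusted p = 5.54e-08, edgeR). Per kilobase of transcript, the level of SMAD4 in control was 0.977 ± 0.120 CPM, against 19.0 ± 0.368 CPM for SMAD5 (SD, n = 3 each).

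SMAD5 was the most abundant receptor-regulated SMAD and was slightly higher in knockdown (133 ± 2.58 against 143 ± 1.86 CPM, SD, n = 3 each; log2 fold change 0.13, adjusted p = 0.00529, edgeR). SMAD9 fell (7.51 ± 0.768 against 2.83 ± 0.712 CPM, SD, n = 3 each; log2 fold change -1.35, adjusted p = 5.02e-06, edgeR). SMAD1 averaged 22.6 ± 1.27 CPM over the control and 19.5 ± 1.26 CPM over the knockdown libraries (SD, n = 3 each) and did not pass (adjusted p = 0.0624, edgeR), but it did with library size alone (0.0316). For every 100 counts of SMAD4 there were 201 ± 19.4 counts of ID3 in control and 196 ± 17.9 in knockdown (SD, n = 3 each; exact two-sided permutation p = 0.7). This pair was chosen after its values were seen, so the p-value is no test. The group means of the ratio lay within the spread between libraries, which does not show equal factors. Whether ID3 and SMAD4 are linked was not tested.

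**Figure D3:**
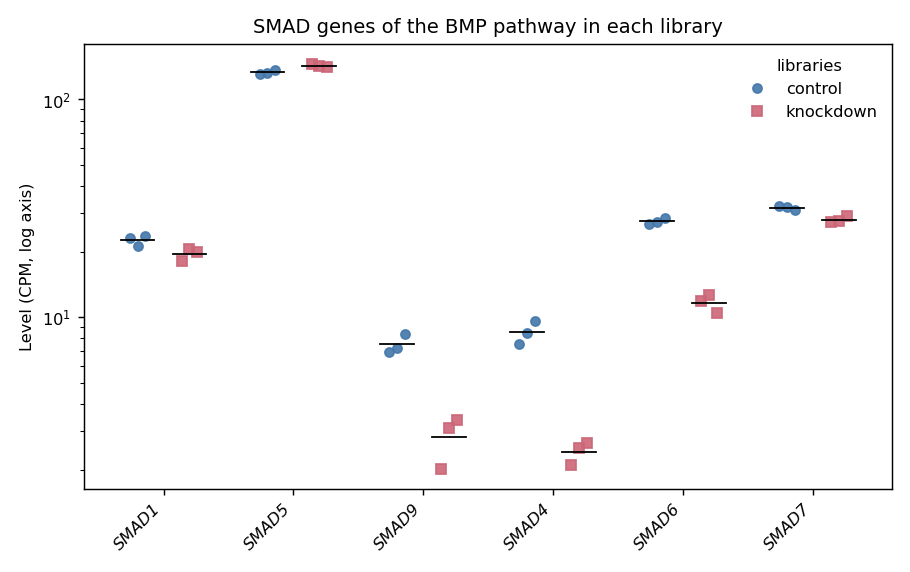
Level in CPM (log axis) of the receptor-regulated SMADs (SMAD1, SMAD5, SMAD9), the common partner SMAD4 and the inhibitors SMAD6 and SMAD7 in the 3 control libraries (circles) and the 3 knockdown libraries (squares), with group means as black lines. All but SMAD5 are lower in every knockdown library than in every control library, SMAD1 and SMAD7 by little, whereas SMAD5 is slightly higher.

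Of 10 tested receptors and co-receptors, 1 was higher and 2 were lower (30% called, against 38.5% of all tested genes), with a median absolute log2 fold change of 0.16 against 0.14 over all tested genes. ACVR2B, a type II receptor shared with activins, fell by 0.29 on the log2 scale (28.4 ± 1.05 against 22.8 ± 1.75 CPM, SD, n = 3 each; adjusted p = 0.00232, edgeR). The co-receptor RGMB had a log2 fold change of -0.23 and NEO1, the receptor for RGM proteins, of 0.18 (adjusted p = 0.0120 and 0.0105, edgeR); both missed the threshold with DESeq2's Wald test (0.149 and 0.0528). The type I receptor BMPR1A (log2 fold change -0.13) and the type II receptor BMPR2 (0.12) had adjusted p-values of 0.0748 and 0.0732 in edgeR. BMPR1B, ACVR1, ACVR2A and RGMA had adjusted p-values of 0.817, 0.600, 0.246 and 0.0638 (edgeR). BMPR1A passed with library size alone (0.0283) and BMPR2 after a correction of the counts for length and GC content (log2 fold change 0.16, adjusted p = 0.00347, edgeR).

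Outside the cell, 14 further ligands were listed and 4 could be tested. GDF7 was lower (1.98 ± 0.284 against 0.820 ± 0.289 CPM, SD, n = 3 each; log2 fold change -1.25, adjusted p = 0.00273, edgeR). BMP6, BMP8A and BMP8B did not pass (adjusted p = 0.499, 0.662 and 0.440, edgeR), and the last 2 are near-identical genes whose reads could be split between them. Of 18 secreted antagonists 5 could be tested, and all 5 were called, 3 lower and 2 higher (100%, against 38.5% of all tested genes). FSTL1 fell from 23.4 ± 0.497 to 6.26 ± 0.517 CPM, FSTL3 from 12.0 ± 1.18 to 7.37 ± 0.651 CPM and CHRD, the chordin gene, from 1.51 ± 0.213 to 0.600 ± 0.108 CPM (SD, n = 3 each; adjusted p = 1.46e-11, 9.59e-05 and 0.00299, edgeR). CHRD passed the low-count filter only through the control libraries. NBL1, a DAN-family antagonist, rose from 108 ± 5.78 to 119.7 ± 4.81 CPM (SD, n = 3 each; adjusted p = 0.00339, edgeR). Of the proteases that cut ligand propeptides or antagonists, 1 of 6 tested was called (16.7%, against 38.5% of all tested genes). It was PCSK6 (log2 fold change -0.23, adjusted p = 0.00646 in edgeR and 0.0811 in DESeq2's Wald test). FURIN, PCSK5 and PCSK7 had log2 fold changes of 0.11, 0.11 and -0.08 (adjusted p = 0.0718, 0.179 and 0.319, edgeR).

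Inside the cell, 5 of 12 regulators were called, 4 higher and 1 lower (41.7%, close to the 38.5% of all tested genes). The ubiquitin ligases SMURF2 and SMURF1, which mark BMP SMADs and receptors for degradation, rose (log2 fold changes 0.34 ± 0.05 and 0.25 ± 0.04 SE; adjusted p = 7.21e-06 and 0.000113, edgeR). SKI, a SMAD co-repressor, had a log2 fold change of 0.14 (adjusted p = 0.0114, edgeR; 0.0502 in DESeq2's Wald test). LEMD3, an inner nuclear membrane protein that binds SMADs, fell (log2 fold change -0.34 ± 0.07 SE, adjusted p = 0.00109, edgeR).

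Of 8 other tested BMP response genes, 5 were lower and 1 higher (75% called, against 38.5% of all tested genes). HEY1, a repressor that also responds to Notch, was at 44.7, 42.0 and 41.0 CPM in control and at 12.4, 14.1 and 13.5 CPM in knockdown libraries, far apart and with a log2 fold change of -1.64 ± 0.07 (SE; adjusted p = 2.13e-12, edgeR). DLX2 and GATA3 fell as well (log2 fold changes -0.99 ± 0.08 and -1.41 ± 0.14 SE; adjusted p = 1.34e-08 and 2.23e-07, edgeR). RUNX2, a regulator of bone formation, moved the other way, from 121, 121 and 123 CPM in control to 165, 166 and 165 CPM in knockdown (log2 fold change 0.47 ± 0.03 SE, adjusted p = 3.36e-09, edgeR). The response genes thus did not share a direction, as the ID genes did not.

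All 3 E proteins that pair with ID proteins were called, in both directions (100%, against 38.5% of all tested genes). TCF4 fell from 6.91 ± 0.635 to 1.74 ± 0.433 CPM and TCF3 from 158 ± 2.61 to 136 ± 2.16 CPM (SD, n = 3 each; adjusted p = 1.48e-07 and 0.000382, edgeR). TCF12 averaged 74.2 ± 2.38 CPM over the control and 79.0 ± 3.23 CPM over the knockdown libraries (SD, n = 3 each; adjusted p = 0.0385, edgeR), a call that was lost in 9 of 20 alternative settings, with adjusted p-values up to 0.147.

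**Figure D4:**
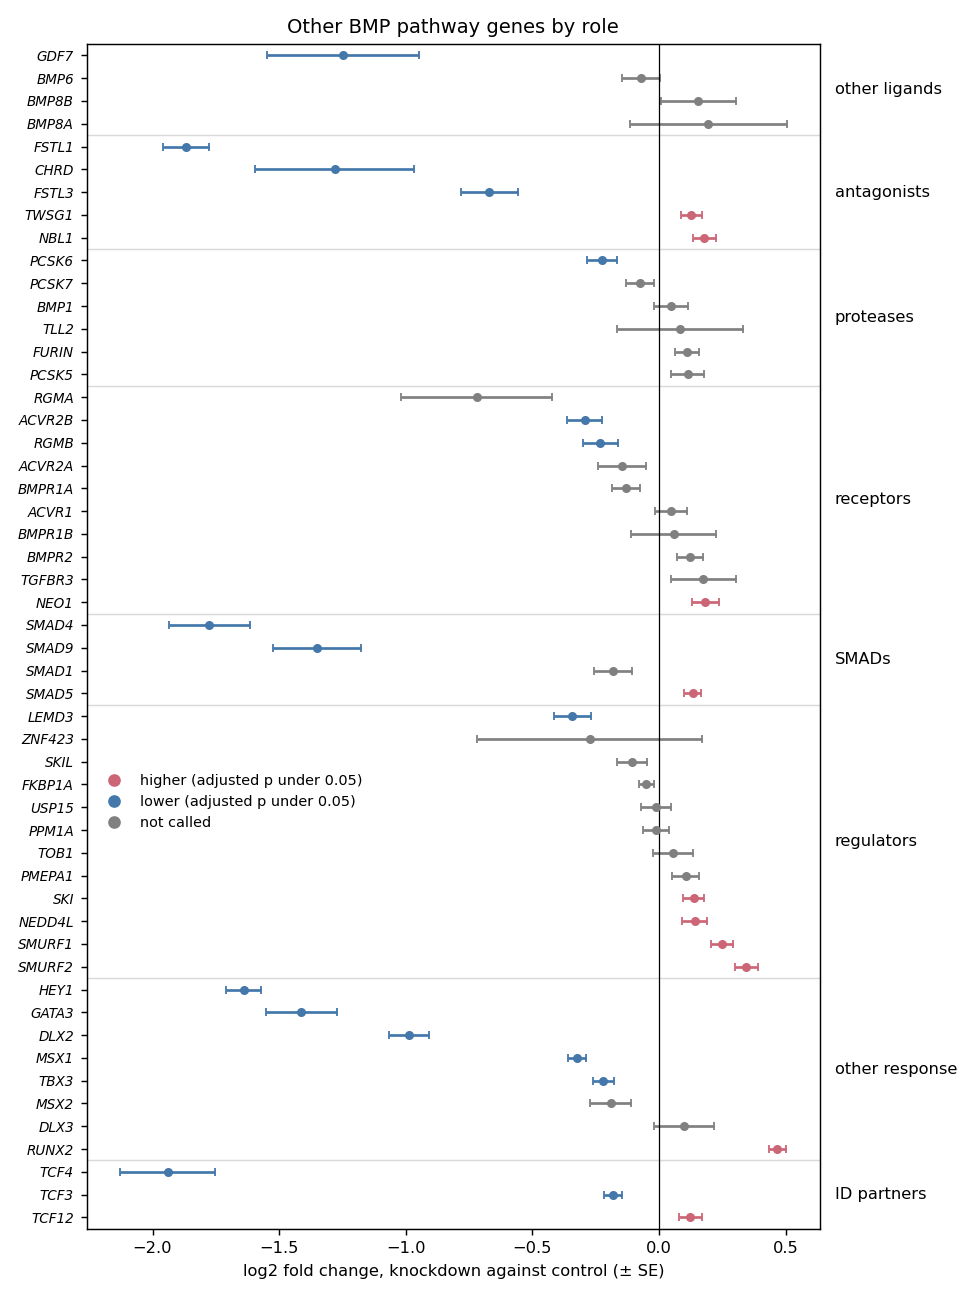
Log2 fold change of knockdown against control with SE (horizontal axis) for the 52 tested BMP pathway genes other than the 10, grouped by role. Blue points are lower, red points higher and grey points not called at an adjusted p of 0.05; SMAD4, SMAD9, FSTL1, CHRD, GDF7, HEY1, GATA3 and TCF4 lie below -1, and no gene lies above 1.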

How the data were processed

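Total RNA (1000 ng) of 6 SW403 cultures was made into PCR-amplified libraries with a kit that is not described as stranded, per the labels' protocols. The deposited values are read counts in whole numbers, with a row for each gene symbol. The submitters' processing notes name STAR 2.6.1a, Salmon, DESeq2 and build hg19 without their roles; the annotation and strand setting are not given in the sources used here. The authors' table of normalized values was not used, and 0 columns of the count table were left without a sample.

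Counts were tested with edgeR 4.0.16 (R 4.3.3): TMM factors, filterByExpr, its quasi-likelihood test on group alone, and Benjamini-Hochberg adjustment over all 13832 tested genes at 0.05. SE was obtained from the log2 fold change and its F statistic. CPM uses each library's total. Alternatives were DESeq2 1.42.0 size factors and Wald test, upper-quartile factors, library size alone, no filter, a mean of at least 50 counts, limma 3.58.1 voom, thinned counts, a threshold of 0.01, a replicate block and leaving out each library. An offset fitted on length and GC content of transcripts (known for 95.8% of tested genes) was added after seeing the data. It was first run without centring, and the thinning with another seed; both were changed after their results were seen, and both versions are reported. The fit was tested on simulated data.

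Positions and transcripts are from GENCODE version 44 on GRCh37. Without strand, opposite-strand transcripts that overlap BMP4, BMP7, ID2, ID4, IRS2 and SMAD4 cannot be told apart from them. SMAD6 and SMAD4 also overlap other annotated genes on the same strand, over 707 and 29617 bases. Those genes are not in the count table. Matches of at least 90% identity over at least 100 bases (blastn 2.17.0) linked ID2 to ID2B, a symbol not in the count table, and part of BMP7 to other transcripts; how shared reads were counted is not given. The 10 genes and the lists were chosen with earlier results of these data known. Named from the lists were the receptors, the SMADs, up to 4 genes of each role with the smallest p, and the 5 genes nearest to the BMP gene with the smallest p.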

Additional observations from a re-analysis of the deposited data

How the results depend on the processing

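IRS2, BAMBI, BMP2, BMP4, ID3, ID4 and SMAD6 kept their direction and their call under every alternative run (20 each, and 19 for BMP2, which had too few counts for the filter on a mean of at least 50). BMP2 passed the low-count filter only through the control libraries, so its direction carries no weight in the fits that used that filter. Its log2 fold change was -2.60 with no filter and -2.64 in DESeq2's Wald test, which was run without that filter. The log2 fold change of ID3 ranged from -1.86 to -1.77, that of ID4 from -1.85 to -1.69, that of SMAD6 from -1.28 to -1.14 and that of BMP2 from -3.14 to -2.28. SMAD7 stayed lower but missed the threshold in 14 of 20 alternatives: DESeq2 size factors (-0.15), no filter (-0.14), DESeq2's Wald test (-0.15), voom (-0.15), thinned counts (-0.16, and -0.14 with the first seed), the correction that was not centred (-0.14, with and without the replicate block), the replicate block alone (below) and 5 of the 6 fits that left out a library (-0.19 to -0.14 over the 6). ID2 missed it with library size alone (0.086) and ranged from 0.093 to 0.14 without each library, missing it without control replicate 3 or knockdown replicate 1. ID1 ranged from -0.40 to -0.17 without each library and passed without knockdown replicate 3 (adjusted p = 0.0419, edgeR). BMP7, called in none, changed sign with no filter (0.0022), thinned counts with the first seed (0.0047), the correction that was not centred (0.0067, and 0.0064 with the replicate block) and without control replicate 3 (-0.029 to 0.019 over the 6). The sign also changed for BMP8A (-0.16 to 0.36) and BMPR1B (-0.062 to 0.19) when libraries were left out. The cause of these changes was not tested.

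The seed of the thinning and the centring of the length and GC correction were changed after their first results had been seen, and both versions are given. The first seed gave SMAD7 an adjusted p of 0.102 and the later one 0.0575. Over 12 seeds SMAD7 passed with 2 and ranged from -0.17 to -0.094, and BMP7 was above 0 with 4. Without centring the correction gave SMAD7 an adjusted p of 0.0601 (0.0701 with the replicate block), and with centring 0.00932 (edgeR).

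Of the 10 genes, 6 to 8 were lower, and the 1 higher gene (ID2) became 0 with library size alone, at a threshold of 0.01 and in the 2 fits named for ID2. Of the other pathway genes, 10 higher became 5 in DESeq2's Wald test, 5 at 0.01, 6 without control replicate 1 and 5 without knockdown replicate 2 (5 to 11 without each library), and 14 with the correction that was not centred. DESeq2's Wald test called 1654 genes of the whole table lower, against 2653.

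Same-numbered libraries had deviations from their group means that correlated at 0.045, -0.011 and -0.098. These values show no strong shared deviation, but they cannot tell whether same-numbered libraries shared a batch, which the labels do not give. With the replicate block SMAD7 had a log2 fold change of -0.16 and an adjusted p of 0.0733 (edgeR), and no other of the 10 genes changed its call. Together with the length and GC correction the block gave -0.19 and an adjusted p of 0.0128 for SMAD7.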
